A study of Mus musculus with 15 samples.

Results

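The transcripts of the proteasome, the protease complex that degrades ubiquitin-tagged proteins, were followed in mouse cumulus cells at 3 stages of oocyte developmental competence. The genes were taken by name from the deposited normalized table, as every probe whose gene symbol was Psma, Psmb, Psmc, Psmd, Psme, Psmf or Psmg followed by a number. This gave 57 probes for 46 genes, among 12681 genes with a symbol on 17324 valid probes, and each gene was described by the probe with the highest mean over the 15 arrays. They fall into 7 alpha subunits and 7 beta subunits of the core, 3 immunoproteasome subunits, 6 ATPase and 11 non-ATPase subunits of the cap, 4 activators with the regulator Psmf1, and 7 assembly factors (Psmg1 to Psmg4, Psmd5, Psmd9 and Psmd10). All 46 probes were well above background on all 15 arrays. Psma8 and Psmb11, the alpha and beta subunits known from testis and thymus, had probes on the arrays that were well above background on 0 of 15 arrays, and they are not among the 46.

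Cumulus cells are the granulosa cells that surround the oocyte. They were taken from B6CBAF1/J mice as pools of several animals, with 5 arrays per stage, and the RNA was labelled with Cy3 for Agilent 1-colour arrays. At the stage named NC1, cells came from unexpanded complexes in large follicles of juvenile mice aged 3 weeks, around prophase I oocytes labelled as incompetent for development, or poorly so in the words of the study. At C1, they came from unexpanded complexes of adults aged 8 weeks, around prophase I oocytes with competence. At C2, they came from expanded complexes flushed from the oviduct of 8-week-old adults superovulated with PMSG and hCG, around metaphase II oocytes. Oocytes were removed by pipetting at NC1 and C1 and with hyaluronidase at C2, so age cannot be told apart from stage in the first step, and neither can hormones, place of collection or enzyme in the second step. The arrays of a stage are separate pools, and the p-values measure the spread between these pools. All 8 granulosa markers examined (Foxl2, Fshr, Amhr2, Inha, Cyp19a1, Nr5a1, Nr5a2 and Gja1) were well above background on all 15 arrays. By the threshold given below, 6 of them were lower at C2 than at C1, where 22.2% of all valid probes were. C2 replicates 4 and 5 stood apart from the other arrays by a low summed signal of oocyte markers. The calls from C1 to C2 are therefore also given without these replicates and with them as the only C2 arrays. Between 18368 and 24496 gene probes were detected on an array, and the precision is limited by the number of arrays.

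The core of the proteasome is a barrel of stacked rings. The alpha subunits form the outer rings that gate the entry of substrates, and the beta subunits form the inner rings, in which Psmb5, Psmb6 and Psmb7 hold the proteolytic sites. After interferon signalling, and constitutively in immune cells, these catalytic subunits can be replaced during assembly by Psmb8, Psmb9 and Psmb10, respectively, which shift the cleavage of peptides towards those presented by MHC class I molecules. The cap binds ubiquitin chains, removes them and unfolds the substrate with its ATPase ring, whereas the activators Psme1 to Psme4 open the gate without using ATP. In cultured cumulus-oocyte complexes, inhibitors of the proteasome are known to impair the expansion of the cumulus, in which the cells move apart within a newly made matrix before ovulation.

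All signals below are log2 intensities after subtraction of the median of each array over its valid probes, so that they can be compared between stages for 1 gene but not between genes. Adjusted p-values come from limma, fitted to all 17324 valid probes over the 15 arrays, with the Benjamini-Hochberg adjustment, and a gene is called when its adjusted p is under 0.01. The proteasome genes were mostly bright on these arrays. Their median signal was 2.67 above the array median, against -0.03 for all valid probes, and 38 of 46 lay above the array median. Their replicates varied little, with a median SD over the 5 arrays of 0.18 for NC1, 0.17 for C1 and 0.18 for C2, against 0.21, 0.23 and 0.20 for all valid probes.

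No proteasome gene was called between juvenile and adult cumulus cells. From NC1 to C1, 0 of 46 genes passed the threshold, where 2.52% of all valid probes did (1.75% higher and 0.768% lower, and 1.63% called with a change of 2-fold or more). The NC1 and C1 arrays did not overlap for 0 of 46 genes, where 5.97% of all valid probes had no overlap. The smallest adjusted p was 0.199, and 3 genes had an unadjusted p under 0.05. These were the inducible catalytic subunit Psmb8, with a log2 difference of 0.38 (adjusted p = 0.228), the activator subunit Psme1, with 0.26 (adjusted p = 0.199), and the cap subunit Psmd8, with 0.25 (adjusted p = 0.199). The differences of all 46 genes ranged from -0.19 to 0.38. Their 95% intervals lay within a 1.5-fold change in either direction for 45 of 46 genes, where this held for 69% of all valid probes. The exception was Psmb8, with an interval of 0.04 to 0.72. A total of 34 genes had a difference above 0, with a median of 0.07, but this direction depended on the scaling, since 13 were above 0 when the arrays were scaled to the median of all gene probes, or taken from the deposited table, and 45 were when they were scaled to the spike-in controls.

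Between C1 and C2 the proteasome genes changed less than the valid probes as a whole, while a few subunits changed. The valid probes in this comparison were neither matched to these genes for brightness nor reduced to 1 probe per gene. A total of 10 of 46 genes (21.7%) were called, where 47.6% of all valid probes were. Of these, 7 were higher at C2 (Psmb8, Psmb10, Psmd4, Psme4, Psme1, Psmb5 and Psma5) and 3 were lower (Psmb9, Psmg2 and Psmd1), where 25.4% of all valid probes were higher and 22.2% lower. The median size of the change, without regard to direction, was 0.24 for the proteasome genes and 0.47 for all valid probes on the log2 scale. No proteasome gene changed by 2-fold or more, where 21.7% of all valid probes did and 21.3% did with an adjusted p under 0.01. The 95% interval lay within a 1.5-fold change for 26 genes (56.5%), where 30.7% of all valid probes had such an interval. The 5 arrays of C1 and the 5 arrays of C2 did not overlap for 12 genes, that is 26.1%, where 43.9% of all valid probes had no overlap. Because these are bulk samples, fewer cells of a type and less RNA per cell cannot be told apart.

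The split of the calls into higher and lower rested on the scaling. With the arrays scaled to the median of all gene probes, or taken from the deposited table, the median of all valid probes at C2 minus C1 moved from 0.02 to 0.33, and 10 proteasome genes were called higher and 0 lower. With the 75th percentile of the valid probes 4 were higher and 7 lower. With quantile normalization 5 were higher and 8 lower, and with the spike-in controls 0 were higher and 2 lower. Of all valid probes, 48% were called with the 75th percentile, 48.7% with quantile normalization and 25.4% with the spike-in controls. The median of all gene probes and the deposited table called 40.9% each. The sign of the change was nevertheless the same under all 7 scalings and background corrections examined for each of the 10 called genes. Psmb8, Psmb10, Psmd4 and Psme1 were called under 6 of the 7, Psmb9, Psmg2 and Psme4 under 5, and Psmb5, Psma5 and Psmd1 under 4. The median over the 46 genes was 0.13, and it lay 0.11 above the median of all valid probes in the main fit and -0.03 from it after quantile normalization. From NC1 to C2, which spans both steps and shares its arrays with both comparisons above, 8 genes were higher and 4 were lower, that is 26.1% against 51.5% of all valid probes (26.5% higher and 24.9% lower). The NC1 and C2 arrays did not overlap for 9 genes (19.6%), where 48.9% of all valid probes had no overlap, and 3 genes (6.52%) changed by 2-fold or more, where 24.7% of all valid probes did so with an adjusted p under 0.01. The 95% interval lay within a 1.5-fold change for 25 genes, where this held for 28.6% of all valid probes. The 3 genes that changed by 2-fold or more were Psmb8, which was 2.35-fold higher (adjusted p = 4.11e-06), Psmb9, which was 2.12-fold lower (adjusted p = 1.81e-06), and Psmg2, which was 2.03-fold lower (adjusted p = 3.12e-06).

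**Figure D1:**
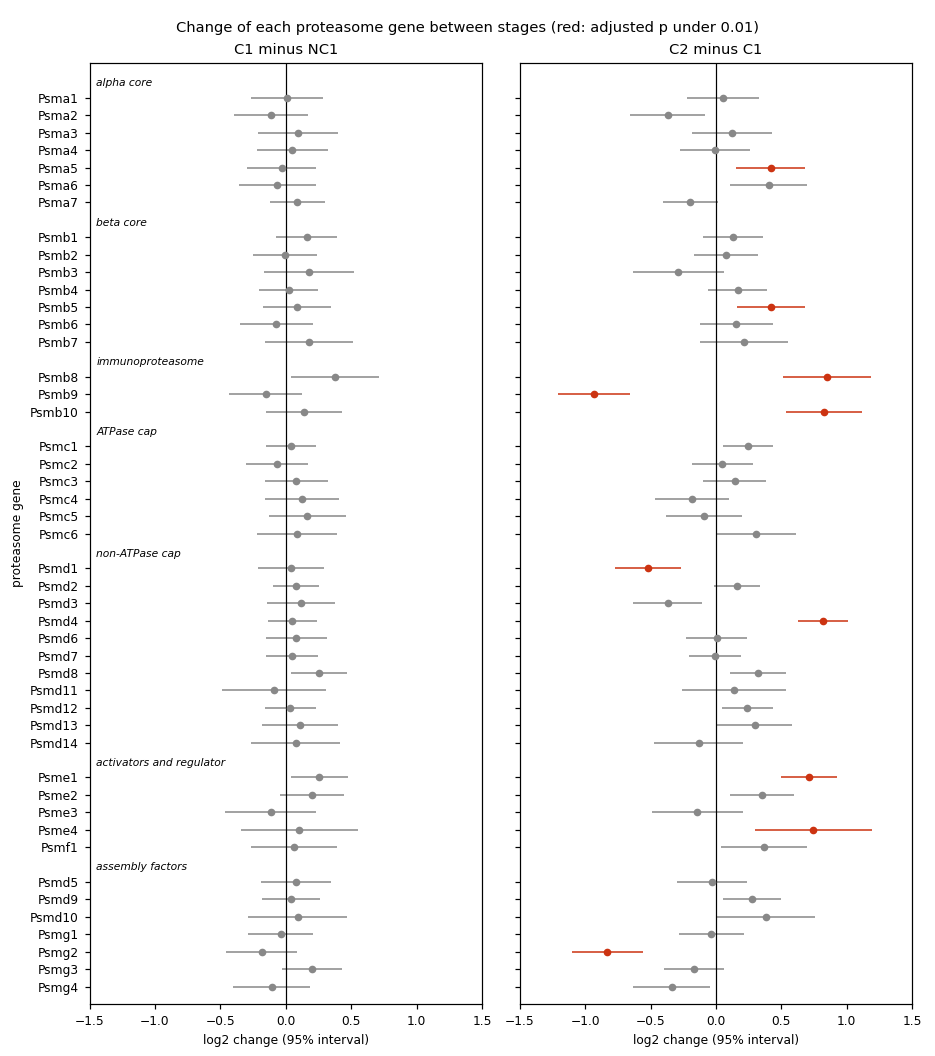
Log2 change of each of the 46 proteasome genes, by class, from NC1 to C1 (left) and from C1 to C2 (right), with points for the fitted change and bars for its 95% interval over 5 arrays per stage. The 10 genes called at C2 minus C1 are in red and lie between -0.93 and 0.85, and no gene is called at C1 minus NC1.

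**Figure D2:**
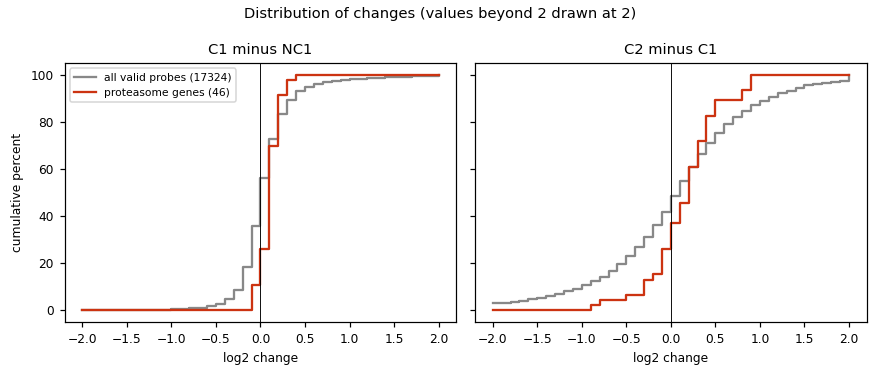
Cumulative percent of the 46 proteasome genes (red) and of the 17324 valid probes (grey) by log2 change, in steps of 0.1, from NC1 to C1 (left) and from C1 to C2 (right). At C2 minus C1 the curve of the proteasome genes is the steeper one, with a median of 0.13 against 0.02 and a median size of change of 0.24 against 0.47.

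The promoters of 6 of the called genes are given first, because these proteasome genes did not share a direction of change. Other called genes, among them Psmg2, are not printed. The sequences are the 250 bases before the transcription start in RefSeq (build GRCm38.p6), 5′ to 3′ on the strand of the gene. Psmb8 lies at chr17:34197945-34198194 on the plus strand, Psmb9 at chr17:34187331-34187580 on the minus strand, Psmb10 at chr8:105938393-105938642 on the minus strand, Psme1 at chr14:55578244-55578493 on the plus strand, Psmd4 at chr3:95042615-95042864 on the minus strand and Psmd1 at chr1:86064369-86064618 on the plus strand. Capitals mark each match, on either strand, to 1 of the 7 motifs listed after the sequences.
Psmb8: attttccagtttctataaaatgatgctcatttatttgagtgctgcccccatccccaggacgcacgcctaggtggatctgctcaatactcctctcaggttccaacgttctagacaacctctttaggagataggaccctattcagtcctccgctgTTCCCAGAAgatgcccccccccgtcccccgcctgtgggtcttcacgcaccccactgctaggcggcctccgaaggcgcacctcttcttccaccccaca
Psmb9: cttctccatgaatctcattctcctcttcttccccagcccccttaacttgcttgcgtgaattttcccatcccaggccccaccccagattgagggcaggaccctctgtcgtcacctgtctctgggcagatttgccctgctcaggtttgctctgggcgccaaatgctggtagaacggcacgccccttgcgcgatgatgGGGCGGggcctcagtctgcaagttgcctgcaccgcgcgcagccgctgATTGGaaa
Psmb10: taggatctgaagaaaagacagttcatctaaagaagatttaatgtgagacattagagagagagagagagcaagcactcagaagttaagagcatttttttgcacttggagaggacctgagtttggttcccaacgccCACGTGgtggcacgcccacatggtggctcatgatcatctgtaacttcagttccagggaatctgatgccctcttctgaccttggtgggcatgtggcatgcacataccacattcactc
Psme1: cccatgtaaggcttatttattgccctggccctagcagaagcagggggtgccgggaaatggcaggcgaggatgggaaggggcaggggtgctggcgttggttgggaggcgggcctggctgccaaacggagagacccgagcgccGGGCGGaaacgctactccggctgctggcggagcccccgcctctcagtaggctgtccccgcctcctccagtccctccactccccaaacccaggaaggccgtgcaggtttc
Psmd4: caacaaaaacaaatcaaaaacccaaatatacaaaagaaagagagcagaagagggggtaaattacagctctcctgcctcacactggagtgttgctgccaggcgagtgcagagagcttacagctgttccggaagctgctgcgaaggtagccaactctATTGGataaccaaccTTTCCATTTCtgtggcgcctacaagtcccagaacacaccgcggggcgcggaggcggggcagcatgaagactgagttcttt
Psmd1: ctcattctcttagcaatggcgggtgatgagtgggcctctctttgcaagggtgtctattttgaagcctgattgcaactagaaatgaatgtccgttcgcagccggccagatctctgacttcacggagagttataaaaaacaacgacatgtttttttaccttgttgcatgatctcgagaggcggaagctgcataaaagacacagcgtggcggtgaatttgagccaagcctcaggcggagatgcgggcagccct

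RefSeq windows were found for 39 of the 46 genes, with 42 windows in all, and each motif was also counted in the 32851 windows of all genes. The interferon-stimulated response element (GAAA and GAAA with any 2 bases between them) was matched in 3 of the 42 windows, those of Psmd4, Psmd9 and Psmb3, and in 2.98% of all windows. The STAT site (TTCNNNGAA) was matched in 2, those of Psmb8 and Psmg1, and in 7.02% of all windows. The antioxidant response element (TGACNNNGC), the class of site bound by the Nfe2l1 and Nfe2l2 factors, was matched in 5, those of Psmb5, Psmb6, Psmc6, Psmd9 and Psmd12, and in 10.2% of all windows. The NF-kappaB site (GGGA and CC with any 4 bases between them) was matched in 21.4% of the proteasome windows and 17.6% of all, the CCAAT box (CCAAT) in 31% and 33.8%, the E box (CACGTG) in 9.52% and 6.02%, and the GC box (GGGCGG) in 54.8% and 32.7%. None of the 7 motifs was matched in the window of Psmd1. In Psmb8 the STAT site begins 97 bases before the start, in Psmb10 the E box begins 116 bases before it, and in Psmd4 the CCAAT box and the interferon-stimulated response element begin 95 and 80 bases before it. A match describes these letters only and does not show that a factor binds there.

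From C1 to C2 the 3 immunoproteasome subunits were all called, where 47.6% of all valid probes were, but not in the same direction. Psmb8 and Psmb10 were higher and Psmb9 was lower, and for each of them all 5 C2 arrays lay apart from all 10 arrays of the other stages. Psmb8 carries the chymotrypsin-like activity of the immunoproteasome. Its signal was -1.14, -1.04, -0.95, -0.69 and -0.70 in the 5 NC1 arrays, -0.16, -0.74, -0.89, -0.56 and -0.29 in the C1 arrays and 0.73, 0.41, 0.31, 0.12 and 0.05 in the C2 arrays. Its C1 arrays overlapped with NC1, whereas every C2 array exceeded every C1 array. The change from C1 to C2 was 0.85 (SE 0.16), that is 1.81-fold (adjusted p = 0.000214, limma), and within the 4 slides it ranged from 0.50 to 1.62.

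Psmb10 carries the trypsin-like activity in the immunoproteasome. The NC1 arrays gave 1.70, 1.85, 2.28, 2.26 and 2.11, the C1 arrays 2.35, 1.85, 2.22, 2.13 and 2.34, and the C2 arrays 3.25, 3.13, 2.93, 2.86 and 2.84. The lowest C2 array thus exceeded the highest array of the other stages. The change from C1 to C2 was 0.83 (SE 0.14), or 1.77-fold (adjusted p = 6.95e-05), with 0.59 to 1.04 within slides. Psmb9, which replaces Psmb6, behaved in the opposite way. The NC1 arrays gave -0.04, 0.27, 0.28, 0.30 and 0.43, the C1 arrays 0.21, -0.03, 0.08, -0.25 and 0.45, and the C2 arrays -0.59, -0.90, -0.90, -0.82 and -0.98. The C2 arrays lay below all others, NC1 and C1 overlapped, and the change from C1 to C2 was -0.93 (SE 0.13), that is 1.91-fold lower (adjusted p = 1.2e-05), with -1.35 to -0.61 within slides. Psmb8 and Psmb10 were no longer called with spike-in scaling (adjusted p = 0.073 and 0.0771), and Psmb9 was no longer called with the median of all gene probes (adjusted p = 0.0149) or the deposited table (0.0148).

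Of the constitutive subunits that they replace, Psmb5 was called higher and Psmb6 and Psmb7 were not called. Psmb5, the chymotrypsin-like subunit, had signals of 5.47, 5.56, 6.14, 5.86 and 5.81 in the NC1 arrays, 5.97, 5.75, 5.81, 5.87 and 5.88 in the C1 arrays and 6.48, 6.15, 6.10, 6.35 and 6.30 in the C2 arrays. Its C2 arrays exceeded all C1 arrays but overlapped with 1 NC1 array. It was called higher at C2 than at C1, by 0.42 (SE 0.12, adjusted p = 0.00733), and its other probe gave 0.45 (SE 0.12, adjusted p = 0.00314). The call on the main probe was close to the threshold. It was lost with NC1 replicate 5, C1 replicate 2, 3, 4 or 5, or C2 replicate 1, 4 or 5 left out (log2 change of 0.37 to 0.43, adjusted p up to 0.0214), and with the slide as a block (0.39, adjusted p = 0.0178).

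Psmb6, the caspase-like subunit, had signals of 5.15, 5.49, 5.72, 5.85 and 5.71 in the NC1 arrays, 5.53, 5.33, 5.66, 5.55 and 5.50 in the C1 arrays and 5.98, 5.52, 5.50, 5.73 and 5.61 in the C2 arrays. All 3 stages overlapped, and the difference from C1 to C2 was 0.16 (SE 0.13, adjusted p = 0.329). Psmb7, the trypsin-like subunit, had signals of 1.92, 2.01, 1.78, 1.46 and 2.10 in the NC1 arrays, 2.05, 2.31, 2.09, 1.80 and 1.90 in the C1 arrays and 2.01, 1.91, 2.22, 2.71 and 2.37 in the C2 arrays. Its stages also overlapped, and its difference was 0.21 (SE 0.16, adjusted p = 0.264).

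**Figure D3:**
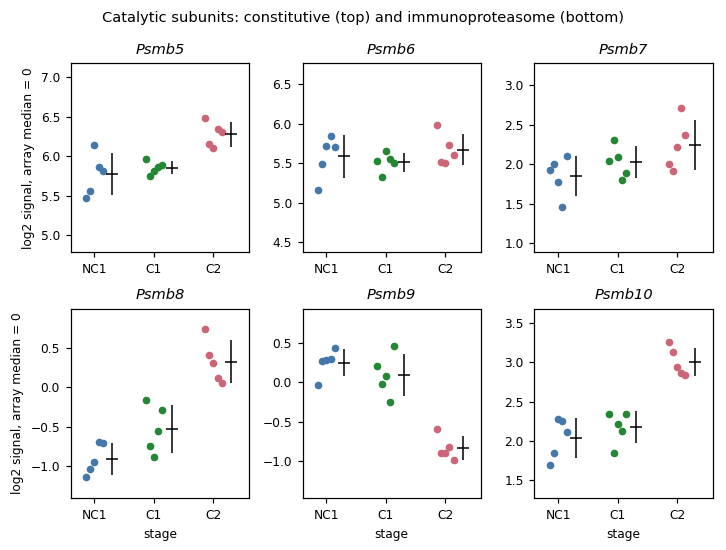
Log2 signal relative to the array median (vertical axis, 2.4 log2 units in each panel) in the 5 arrays of NC1, C1 and C2, with points for arrays and the bar for mean ± SD. The top row shows the constitutive subunits Psmb5, Psmb6 and Psmb7, and the bottom row the subunits that replace them, of which Psmb8 and Psmb10 lie higher and Psmb9 lower at C2.

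A ratio of 2 probes within an array does not depend on a scaling of the array by a constant, so the change of each inducible subunit was set against that of the subunit it replaces. This was tested with an exact two-sided permutation test over arrays (5 against 5, for which the smallest possible p is 0.00794), adjusted over 6 tests at 0.05. From C1 to C2 the log2 ratio of Psmb9 to Psmb6 fell by 1.09 (exact permutation p = 0.00794, adjusted p = 0.0476), and it was lower in each of the 5 C2 arrays than in any C1 array. It did not pass with the slide as a block (-1.06, exact permutation, adjusted p = 0.167) or the replicate number as a block (-1.09, exact permutation, adjusted p = 0.188), where it had the smallest unadjusted p that these blocked designs allow. The ratio of Psmb8 to Psmb5 changed by 0.43 (exact permutation p = 0.0476, adjusted p = 0.111) and that of Psmb10 to Psmb7 by 0.61 (exact permutation p = 0.0556, adjusted p = 0.111), which did not pass the threshold. From NC1 to C1 the changes were 0.29, -0.08 and -0.04 for the pairs of Psmb8, Psmb9 and Psmb10, with adjusted exact permutation p of 0.143, 0.705 and 0.881. The result for Psmb8 to Psmb5 from NC1 to C1 passed the threshold without C1 replicate 3 (0.37, adjusted exact permutation p = 0.0238), and that for Psmb10 to Psmb7 from C1 to C2 did so without C2 replicate 4 (0.77, adjusted exact permutation p = 0.0238). Without C2 replicates 4 and 5 the ratios of both Psmb8 to Psmb5 (0.62) and Psmb10 to Psmb7 (0.91) passed from C1 to C2 (adjusted exact permutation p = 0.0357 for each).

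Psmb9 and Psmb8 lie next to the genes of the TAP transporter, which carries peptides into the endoplasmic reticulum for MHC class I. In RefSeq (GRCm38.p6), the order on chromosome 17 is H2-DMb1, Psmb9, Tap1, Psmb8 and Tap2. The starts of Psmb9 and Tap1 are 226 bases apart on opposite strands, and 225 of the 250 bases printed above for Psmb9 also lie in the window of Tap1. Along this order the change from C1 to C2 was -0.93 for Psmb9, 0.29 for Tap1 (adjusted p = 0.222), 0.85 for Psmb8 and 1.03 for Tap2 (adjusted p = 0.000227). The mean signal of Tap1 over NC1, C1 and C2 was -2.95 ± 0.32, -2.86 ± 0.43 and -2.57 ± 0.24 (SD, n = 5 each), and that of Tap2 was 1.19 ± 0.18, 1.79 ± 0.41 and 2.82 ± 0.36. Psmb9 thus fell while the change of Tap1, read from the other strand, did not pass the threshold. The difference between their changes was not tested.

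In the list of antigen presentation and interferon response genes, 12 of 13 were valid, and between C1 and C2 only Tap2 was called higher while Erap1 and Nlrc5 were called lower, that is 25% of the list against 47.6% of all valid probes. Nlrc5, a transactivator of MHC class I genes, fell by 2.66 (adjusted p = 9.76e-10), and Erap1, a peptide-trimming aminopeptidase, fell by 1.22 (adjusted p = 1.36e-06). Both were lower under all 7 scalings, and 2 genes of this list were called higher with the median of all gene probes or the deposited table and 0 with the spike-ins. The interferon-responsive factor Irf1 gave -0.45 (adjusted p = 0.0236), the MHC class I light chain B2m gave 0.40 (adjusted p = 0.0491) and H2-K1 gave 0.28 (adjusted p = 0.0583). Between NC1 and C1, 0 of these 12 genes were called.

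The immunoproteasome is constitutive in leukocytes, and most valid markers of these cells were higher at C2 than at NC1. Of 11 leukocyte markers, 5 were valid, and 0 of these were called from NC1 to C1. From C1 to C2, 1 (Cd14) was called higher, that is 20% against 47.6% of all valid probes. From NC1 to C2, 4 (Cd14, Tyrobp, Csf1r and Coro1a) were called higher, that is 80% against 51.5%. The remaining valid marker, Cd3e, was not called (-0.29 at C1 minus NC1, -0.19 at C2 minus C1 and -0.49 at C2 minus NC1). The summed linear signal of the 10 markers with a probe, in units of the array median, was between 0.948 and 1.32 at NC1, between 1.32 and 2.07 at C1 and between 1.78 and 4.61 at C2. The defining marker Ptprc was well above background on 1 NC1, 1 C1 and 4 C2 arrays, Laptm5 on 0, 0 and 2 arrays, and Cd79a on none. Oviduct epithelium markers were summed to between 6.22 and 7.80 at NC1, between 7.15 and 11.8 at C1 and between 24.9 and 30.2 at C2. From C1 to C2 Krt8 and Krt18 were called higher and Epcam and Tppp3 lower, that is 80% of the valid oviduct markers against 47.6% of all valid probes. Ovgp1, the oviduct glycoprotein, gave 2.28 from C1 to C2 (adjusted p = 0.0343) and was called higher from NC1 to C2 (3.32, adjusted p = 0.00347). So were Krt8 and Krt18, with 0 of these markers called lower, that is 60% of the valid ones against 51.5% of all valid probes.

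Oocyte markers were summed to between 12.6 and 50.1 at NC1, between 12.8 and 40.1 at C1 and between 0.641 and 17.0 at C2, and the C2 arrays differed in them. Their sum was between 13.3 and 17.0 in C2 replicates 1, 2 and 3 but 0.641 and 0.746 in replicates 4 and 5. H1foo was 2.52, 2.91, 3.04, -3.60 and -3.57 in C2 replicates 1 to 5, and Gdf9 was 3.06, 2.13, 2.17, -1.69 and -1.42. With Oosp1 they carried most of the sum in replicates 1 to 3. Zp1, Zp3 and Nlrp5 were between -3.99 and -3.48 there and lower still in replicates 4 and 5. Npm2 showed no such split (-2.45, -2.29, -2.37, -2.58 and -2.33). It was the only oocyte marker called lower from C1 to C2 (-2.89, adjusted p = 5.51e-07, limma), that is 33.3% of the valid ones against 47.6% of all valid probes. Zp2 was well above background on none of the C2 arrays. Psmb8, Psmb10, Psme1, Psme2 and Psmd4 each had their lowest C2 signals in replicates 4 and 5, as had Psmg1 to Psmg4. Other proteasome genes, among them Psmb4, Psmb7, Psmc1 and Psmd2, had their highest C2 signals there (2.71 and 2.37 for Psmb7). The genes thus had no common direction in replicates 4 and 5. Without these replicates 4 proteasome genes were called higher and 4 lower from C1 to C2 (Psmb8 1.01, Psmb10 0.93, Psmd4 0.86 and Psme1 0.79, and Psmb9 -0.89, Psmg2 -0.73, Psmd1 -0.66 and Psma2 -0.51), where 41.6% of all valid probes were called. With only these replicates 5 were called higher and 2 lower, where 35.4% of all valid probes were called. Psmb10 (0.67), Psmd4 (0.75), Psme1 (0.60), Psmb9 (-0.99) and Psmg2 (-0.98) were called in both cases, while Psmb8 (0.61, adjusted p = 0.0198) and Psmd1 (-0.31, adjusted p = 0.0881) were not called with only replicates 4 and 5. Psme4 (0.55, adjusted p = 0.0645) and Psma5 (0.32, adjusted p = 0.0729) were not called without them, and Psmb5 was called in neither case. These choices of arrays were made after seeing the data. All 5 theca and stroma markers were called lower at C2 than at C1, where 22.2% of all valid probes were. From NC1 to C1 a lower signal was called for 5 of 6 red blood cell markers, where 0.768% of all valid probes were called lower. The part of these cells in the changes of Psmb8, Psmb9, Psmb10 and the other proteasome genes was not tested.

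Among the 4 activators, Psme1 and Psme4 were called higher at C2 than at C1 and Psme2 and Psme3 were not. With Psmf1, that is 2 of 5 genes (40%), where 47.6% of all valid probes were called. Psme1 and Psme2 together form the interferon-inducible activator of the core. Psme1 had signals of 2.84, 3.00, 2.87, 2.88 and 3.02 in the NC1 arrays, 3.41, 2.99, 3.13, 3.02 and 3.34 in the C1 arrays and 3.92, 3.97, 4.00, 3.81 and 3.74 in the C2 arrays. Every C2 array exceeded every other array, and the change from C1 to C2 was 0.71 (SE 0.10), that is 1.64-fold (adjusted p = 1.57e-05), with 0.54 to 0.87 within slides. It was no longer called with spike-in scaling (adjusted p = 0.115).

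Psme2 had signals of 4.08, 4.39, 4.65, 4.29 and 4.42 in the NC1 arrays, 4.66, 4.37, 4.73, 4.49 and 4.57 in the C1 arrays and 5.12, 4.91, 5.01, 4.77 and 4.79 in the C2 arrays. Its C2 arrays also exceeded all others, but the change from C1, 0.35 (SE 0.12), did not pass the threshold (adjusted p = 0.0151), nor did that of its other probe (0.40, adjusted p = 0.0103). With NC1 replicate 3 left out, which leaves the C1 and C2 arrays as they are, the same value was called (adjusted p = 0.00975). From NC1 to C2 Psme2 was called higher, by 0.55 (SE 0.12, adjusted p = 0.00056). Psme1 and Psme2 lie on chromosome 14 and are separated by Emc9 in RefSeq.

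Psme3 forms a separate, nuclear activator. It had signals of -1.14, -1.62, -0.80, -0.59 and -1.39 in the NC1 arrays, -1.43, -1.16, -1.35, -1.0 and -1.17 in the C1 arrays and -1.31, -1.19, -1.43, -1.53 and -1.35 in the C2 arrays. The stages overlapped, and the difference from C1 to C2 was -0.14 (SE 0.16, adjusted p = 0.479). Psme4, a large single-chain activator, had signals of -1.02, -0.56, -1.46, -1.16 and -1.03 in the NC1 arrays, -0.99, -0.35, -0.93, -1.10 and -1.34 in the C1 arrays and -0.70, -0.56, 0.08, -0.02 and 0.20 in the C2 arrays. The C2 arrays were spread, with 2 of them inside the range of C1, and the change was 0.74 (SE 0.21), or 1.67-fold (adjusted p = 0.00623). This call was lost with C1 replicate 1, 3, 4 or 5 or C2 replicate 3, 4 or 5 left out (0.64 to 0.75, adjusted p up to 0.0201), and the other, dimmer probe of Psme4 gave 0.38 (SE 0.28, adjusted p = 0.248).

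Psmf1, known as an inhibitor of the core in vitro, had signals of -2.15, -1.91, -2.68, -2.33 and -2.18 in the NC1 arrays, -1.92, -1.92, -2.55, -2.50 and -2.04 in the C1 arrays and -1.93, -1.64, -1.72, -1.86 and -1.95 in the C2 arrays. Its stages overlapped, and the difference from C1 to C2 was 0.37 (SE 0.16, adjusted p = 0.0542).

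**Figure D4:**
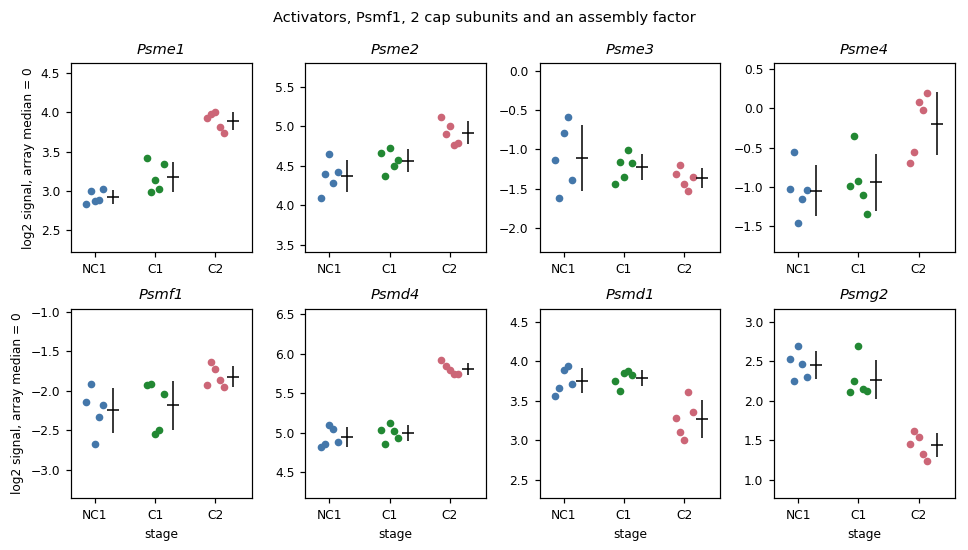
Log2 signal relative to the array median (vertical axis, 2.4 log2 units in each panel) in the 5 arrays of NC1, C1 and C2 for the 4 activators, Psmf1, the cap subunits Psmd4 and Psmd1 and the assembly factor Psmg2, with points for arrays and the bar for mean ± SD. Psme1 and Psmd4 lie higher, and Psmg2 lower, on all C2 arrays than on any other array, whereas 2 C2 arrays of Psme4 lie within the range of C1.

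Of the 17 cap subunits, 2 (11.8%) were called from C1 to C2 on the main probes, where 47.6% of all valid probes were. Both are non-ATPase subunits. Psmd4 is a ubiquitin receptor that hands substrates to the cap, and its values varied least between replicates of C2 among the genes described by array here. The NC1 arrays gave 4.82, 4.86, 5.10, 5.05 and 4.88, the C1 arrays 5.03, 4.86, 5.12, 5.01 and 4.94, and the C2 arrays 5.92, 5.84, 5.80, 5.75 and 5.74. All C2 arrays lay above all others, NC1 and C1 overlapped, and the change from C1 to C2 was 0.82 (SE 0.09), that is 1.76-fold (adjusted p = 8.08e-07), with 0.78 to 0.86 within slides. It was no longer called with spike-in scaling (adjusted p = 0.0551). Psmd1 is the large scaffold subunit to which the ubiquitin receptor Adrm1 docks. The NC1 arrays gave 3.56, 3.66, 3.90, 3.94 and 3.72, the C1 arrays 3.75, 3.63, 3.86, 3.88 and 3.83, and the C2 arrays 3.28, 3.11, 3.00, 3.61 and 3.36. The highest C2 array fell below the lowest C1 array but within the range of NC1, and the change from C1 to C2 was -0.52 (SE 0.12), that is 1.43-fold lower (adjusted p = 0.00123). Psmd1 was no longer called with the median of all gene probes (-0.21, adjusted p = 0.396), the deposited table (-0.21, adjusted p = 0.395) or the spike-in controls (-0.67, adjusted p = 0.049). Adrm1 itself gave -0.06 (adjusted p = 0.63).

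Of the other 9 non-ATPase subunits, none was called from C1 to C2, and their differences ranged from -0.37 to 0.32. Psmd8, Psmd12 and Psmd3 nevertheless had C1 and C2 arrays that did not overlap. With Psmd4 and Psmd1, this held for 5 of the 11 non-ATPase subunits (45.5%), close to the 43.9% of all valid probes. Psmd8 gave 0.25 from NC1 to C1 and 0.32 from C1 to C2, neither of which was called (adjusted p = 0.199 and 0.0108), and it was called higher from NC1 to C2 (0.58, adjusted p = 9.91e-05). The change from C1 to C2 was called without NC1 replicate 3 or C2 replicate 2 (0.32 and 0.36, adjusted p = 0.00691 to 0.00843). Its mean signal over NC1, C1 and C2 was 0.66 ± 0.14, 0.91 ± 0.12 and 1.23 ± 0.13 (SD, n = 5 each). Psmd3 gave -0.37 (adjusted p = 0.018) and Psmd12 gave 0.24 (adjusted p = 0.0358). Psmd14, the deubiquitinase of the cap, gave -0.13 (adjusted p = 0.504), with an interval of -0.47 to 0.21.

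The ATPase ring, Psmc1 to Psmc6, had 0 of 6 subunits called on the main probes in any of the 3 comparisons. Of all valid probes, 2.52% were called from NC1 to C1, 47.6% from C1 to C2 and 51.5% from NC1 to C2. From C1 to C2 the differences ranged from -0.18 (Psmc4) to 0.31 (Psmc6), and the interval lay within a 1.5-fold change for 5 of 6 subunits. The exception was Psmc6, with 0.00 to 0.61 and an adjusted p of 0.0798. Psmc1, the ATPase with the smallest adjusted p (0.0287), gave 0.24 on the main probe, while its other probe was called, with 0.36 (adjusted p = 0.00317).

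The alpha ring showed 1 called subunit of 7 from C1 to C2 (14.3%, against 47.6% of all valid probes). Psma5 was higher at C2, with mean signals of 4.43 ± 0.22, 4.39 ± 0.11 and 4.81 ± 0.21 at NC1, C1 and C2, respectively (SD, n = 5 each), a change of 0.42 (SE 0.12, adjusted p = 0.0083) and overlapping arrays. This call was lost with the slide as a block (0.41, adjusted p = 0.0194) and when NC1 replicate 2, 4 or 5, C1 replicate 1, 2, 4 or 5 or C2 replicate 1, 3, 4 or 5 was left out (0.37 to 0.44, adjusted p up to 0.0246). Psma2 was lower at C2 than at NC1, with a change of -0.48 (SE 0.13, adjusted p = 0.00501), which was lost without NC1 replicate 2, 3 or 5 or C2 replicate 1, 2 or 3 (-0.49 to -0.41, adjusted p up to 0.0171), with the slide as a block (-0.49, adjusted p = 0.0133), with the median of all gene probes (-0.28, adjusted p = 0.205), the deposited table or the spike-in controls (-0.48, adjusted p = 0.127), and without the presence filter. From C1 to C2 its change of -0.37 was not called (adjusted p = 0.0266), except without C2 replicate 4 (-0.46, adjusted p = 0.00775). From NC1 to C2 Psma5 was not called (0.39, adjusted p = 0.0127), except without NC1 replicate 3 or C2 replicate 2 (0.47, adjusted p = 0.00356 to 0.00371). Psma3 gave 0.12 from C1 to C2 (adjusted p = 0.479). In the constitutive beta ring, 1 of 7 subunits (Psmb5, above) was called from C1 to C2, again 14.3% against 47.6% of all valid probes. The others ranged from -0.29 (Psmb3) to 0.21 (Psmb7).

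Among the 7 assembly factors, 1 (14.3%) was called from C1 to C2, where 47.6% of all valid probes were. Psmg2 forms a dimer with Psmg1 that guides the assembly of the alpha ring. Psmg2 had signals of 2.53, 2.25, 2.69, 2.47 and 2.30 in the NC1 arrays, 2.10, 2.25, 2.69, 2.15 and 2.13 in the C1 arrays and 1.45, 1.61, 1.54, 1.33 and 1.24 in the C2 arrays. All C2 arrays lay below all others, and the change from C1 to C2 was -0.83 (SE 0.13), that is 1.78-fold lower (adjusted p = 3.28e-05), with -1.25 to -0.59 within slides. It was no longer called with the median of all gene probes (adjusted p = 0.0115) or the deposited table (0.0114). Its partner Psmg1 gave -0.03 on the main probe (adjusted p = 0.825) and -0.03 on the other. Psmg4, which acts with Psmg3, gave -0.34 (adjusted p = 0.0465), and Psmg3 gave -0.17 (adjusted p = 0.191). The probes of Psmd10, an ATPase chaperone, disagreed. The main probe gave 0.38 (SE 0.18, adjusted p = 0.075) and the dimmer one was called, with 0.89 (SE 0.11, adjusted p = 2.57e-06). Over the 11 genes with 2 probes, the call from C1 to C2 was the same on both probes for 8 genes and differed for Psmd10, Psmc1 and Psme4.

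The subunits varied together from array to array. After the mean of each stage was subtracted, the median correlation between pairs of the 31 constitutive core and cap genes over the 15 arrays was 0.42, and over all 46 genes it was 0.26. It was 0.01 between 1925 valid probes taken at regular intervals. These are descriptions over arrays that share scaling, and the brightness of the probes, which differs between these sets, was not accounted for. The median deviation of the 31 genes from their stage mean ranged from -0.19 in NC1 replicate 1 to 0.23 in C2 replicate 4.

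**Figure D5:**
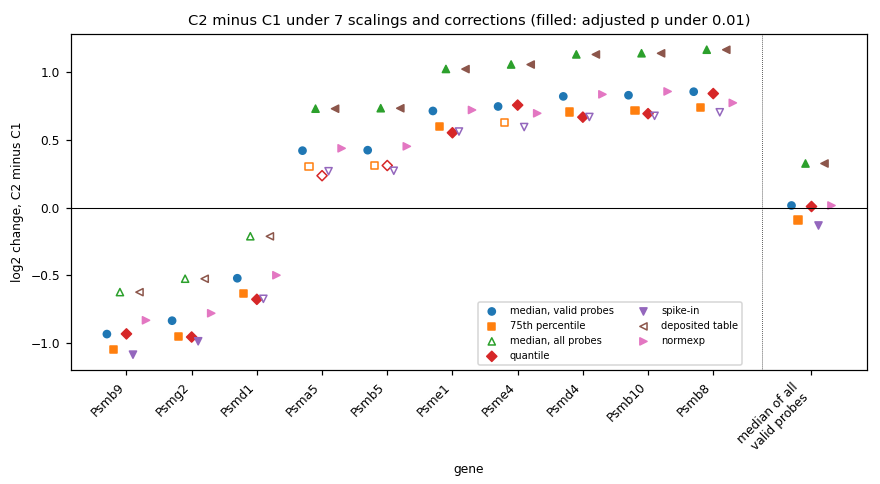
Log2 change from C1 to C2 of the 10 called genes (horizontal axis) under 7 scalings and background corrections, with filled symbols where the adjusted p is under 0.01, and the median of all valid probes, which was not tested, under the same settings at the right. All symbols of a gene lie on the same side of 0, and the shift of all valid probes to 0.33 under the median of all gene probes and the deposited table raises every gene with it.

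Among the genes that tag substrates and bring them to the proteasome, Zfand5, Rad23b, Txnl1 and Ecpas changed by 2-fold or more from C1 to C2. No subunit did, while 21.7% of all valid probes did. Of 26 genes for ubiquitin, its activation, shuttle and docking factors and other assembly factors, 24 were valid, and from C1 to C2 10 were called higher and 3 lower, that is 54.2% against 47.6% of all valid probes. Zfand5, which binds ubiquitin and the proteasome, was higher by 1.69 (SE 0.13, adjusted p = 1.55e-08). The shuttle factors Rad23b and Ubqln1 were higher by 1.06 (adjusted p = 2.29e-07) and 0.92 (adjusted p = 7.14e-05). The deubiquitinases that dock on the cap, Usp14 and Uchl5, were higher by 0.59 (adjusted p = 3.27e-05) and 0.49 (adjusted p = 0.00026). The genes called higher also included Uba1 (0.40), Ufd1 (0.52), the core assembly factor Pomp (0.46) and the nuclear import factor Akirin2 (0.58), with adjusted p from 9.11e-05 to 0.00655.

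The 3 genes called lower were Txnl1, a cap-associated thioredoxin (-1.95, adjusted p = 3.84e-08), Ecpas, an adaptor and scaffold of the proteasome (-1.07, adjusted p = 2.56e-06), and Fbxo7, which also binds Psmf1 (-0.76, adjusted p = 7.09e-06). With the spike-in controls 2 genes of this list were higher and 3 lower, where 25.4% of all valid probes were called. Txnl1, Ecpas, Zfand5 and Rad23b were called under all 7 scalings. Of 7 regulators of proteasome genes 4 were valid. Nfe2l1, the factor that raises proteasome transcripts when the proteasome is impaired, fell by 0.75 (adjusted p = 9.6e-05), while Nfe2l2 was higher by 0.54 (adjusted p = 0.00224) and Stat3 by 1.14 (adjusted p = 0.000117). Nfe2l1 and Nfe2l2 were called under 4 of the 7 scalings each, Stat3 under all 7. Between NC1 and C1, 0 of the valid genes of these lists were called.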

How the data were processed

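Cumulus cell RNA of 3 stages, with 5 arrays each, had been hybridised to Agilent 1-colour arrays. The deposited scanner files hold intensities per spot (gProcessedSignal, background-corrected with the Feature Extraction software of Agilent, given as 10.7.1.1 in the headers and as 10.5.1.1 in the submitters' processing notes). The deposited normalized table holds log2 values that the authors had scaled to the median of each array and filtered on detection, and its columns differed from the scanner log2 values by a constant per array (SD up to 0.00742). It was used to choose the genes and as an alternative. Control spots were removed, spots of a probe were averaged, log2 was taken and the median of each array over the valid probes was subtracted. A probe was valid when well above background in at least 4 of 5 arrays of each stage, which left 17324 of 39429 gene probes. Genes were named from the RefSeq table of build GRCm38.p6 through the probe's accession (26055 probes) or from the deposited table (2770 probes), and 10604 probes stayed unnamed. A single limma model (version 3.58.1, R 4.3.3) was fitted over the 15 arrays, with the study's adjustment (Benjamini-Hochberg) and threshold (0.01) but not its one-factor analysis of variance, which was an alternative, together with an exact permutation test for 3 pairs of subunits. The scripts were tested on simulated data. From C1 to C2, 20%, 38%, 70% and 98% of probes changed by 0.5, 0.75, 1 and 2 log2 units were called, with 50 probes of each size. Few of the 17324 probes were changed there, so the adjustment was stricter than in the real data, and these shares do not carry over to them. Other scalings, background corrections, filters, probe choices, thresholds, blocks and left-out arrays were tried as alternatives. All 4 slides held all 3 stages. The values of every array are given for the immunoproteasome subunits and those they replace, the activators and Psmf1, and the 3 highest and 3 lowest called changes. The genes, classes and lists were chosen with earlier results of these data known.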

Additional observations from a re-analysis of the deposited data

Results flagged for a closer look

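In 7 of 138 groups of 5 arrays, 1 array lay apart from the other 4 by Dixon's criterion, which chance alone meets in about 1 of 20 groups. Psma4 was 1.32 in NC1 replicate 1 against 1.55 to 1.62 in the other arrays of the stage. Psma6 was 3.69 in C2 replicate 1 against 2.99 to 3.14. Psmb2 was -0.51 in C1 replicate 3 against -0.99 to -0.92. Psmd3 was 5.08 in C2 replicate 3 against 5.36 to 5.47, and Psmd6 was 1.82 in NC1 replicate 4 against 2.03 to 2.12. Psmd5 was 1.09 in C2 replicate 1 against 0.45 to 0.64. Psmg2 was 2.69 in C1 replicate 3 against 2.10 to 2.25, and it is the only one of the 7 genes that was called from C1 to C2.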

How the results depend on the processing

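No called value changed direction under the alternatives run, and the scaling changed mainly the split into higher and lower. All counts are over the 46 genes. From C1 to C2 (7 higher, 3 lower), 4 were higher and 7 lower with the 75th percentile. With the median of all gene probes 0 were lower, and 0 with the deposited table. With quantile normalization 8 were lower, and with the spike-in controls 0 were higher. Of all valid probes, 47.6% were called in the main fit and 48%, 40.9%, 40.9%, 48.7% and 25.4% under these settings, in this order. There were 4 higher without the presence filter and 11 higher with the mean of all probes of a gene. At an adjusted p of 0.05, 13 were higher and 6 lower. With a 2-fold minimum 0 were higher and 0 lower, where 21.3% of all valid probes were called. The number higher was between 4 and 9 when single arrays were left out, with 4 without C1 replicate 4 or 5 or C2 replicate 4 or 5. From NC1 to C2 (8 higher, 4 lower), 4 were higher and 2 lower with the spike-ins and 13 higher with normexp. At 0.05, 20 were higher. With a 2-fold minimum 1 was higher and 2 lower, where 24.7% of all valid probes were called. Lower calls numbered 2 with the median of all gene probes, 2 with the deposited table, 2 without the presence filter and 7 with quantile normalization. Of all valid probes, 51.5% were called in the main fit, 29.8% with the spike-ins, 48.4% with normexp and 52.8% with quantile normalization. The median of all gene probes and the deposited table called 41.2% each. The F-test over the stages called 11 genes (23.9%), where it called 51.5% of all valid probes. It called 3 genes with the spike-ins, 13 with the methods' one-factor analysis of variance, 21 at 0.05 and 3 with a 2-fold minimum. Where no share of all valid probes is given here, a count describes these genes only. The causes were not tested. The ratio of Psmb9 to Psmb6 gave -1.06 with the slide as a block (exact permutation, adjusted p = 0.167) and -1.09 with the replicate block (exact permutation, adjusted p = 0.188), so its call was lost in designs that could reach no smaller unadjusted p. In choices of arrays made after seeing the data, with only C2 replicates 4 and 5 it was -1.15, again at the smallest p possible, and without them Psmb8 to Psmb5 gave 0.62 and Psmb10 to Psmb7 gave 0.91 from C1 to C2, and 4 genes were called higher. With single arrays left out, the ratio of Psmb8 to Psmb5 from NC1 to C1 was between 0.19 and 0.37, and that of Psmb10 to Psmb7 from C1 to C2 between 0.46 and 0.77. Same-numbered arrays correlated at over 0.1, and best with their own number, in 4 of 15 pairs, of which NC1 and C1 replicates 2, 4 and 5 (0.34 to 0.35) were 3, a hint from the data that did not hold for replicates 1 (0.07) and 3 (0.06) and was not taken as pairing. The replicate block called 4 genes higher from C1 to C2. In either direction it called 7 genes (15.2%), where 46.5% of all valid probes were called. All arrays shared a scan date, so a block for it was not run.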
